A study of Mus musculus with 8 samples.

Results

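Genes of the proteins of the cytosolic ribosome were examined in liver endothelial cells of mice that carried transplanted, labelled marrow. Members were the genes whose array annotation gave a single symbol of the form Rpl or Rps with a number and at most a letter or l1 after it, together with Rplp0, Rplp1, Rplp2 and Rpsa where these had a single symbol; kinases named Rps6k and names with -ps were left out. This gave 67 of the 21159 genes measured, 40 named for the large and 27 for the small ribosomal subunit, on 19 chromosomes. A further 17 ribosomal protein genes were measured only by probe sets that carry a second symbol, mostly that of a small nucleolar RNA within the gene, and are described apart.

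All mice were wild-type C57BL\6N recipients, 8 weeks old, that had been irradiated with 9 Gy in 2 doses of 4.5 Gy and given 5000 YFP-labelled LSK cells (marrow cells lacking lineage markers and carrying Sca-1 and Kit) after a rest of 2 h. A month later the liver was digested, and cells without CD45, the leukocyte surface marker, but carrying CD31 and CD146, which mark endothelium, were taken and split by YFP into YFP+ cells, labelled bone marrow-derived, and YFP- cells, labelled resident. Both groups thus come from irradiated, transplanted hosts, and each is represented by 4 arrays, titled as biological replicates. Neither the promoter behind YFP, nor the strain of the donors, nor whether an array holds 1 mouse or a pool is stated by the labels.

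A cytosolic ribosome joins a small subunit, which reads the messenger RNA, to a large subunit, which forms the peptide bond, and each subunit is built from ribosomal RNA and many proteins, most of them in a single copy. Messenger RNAs of ribosomal proteins belong to the TOP class, whose 5′ end begins with a C and a run of pyrimidines through which the mTOR pathway and the binding protein Larp1 control their translation. Ribosomal protein transcripts are abundant in nearly every cell, and their level relative to other transcripts is known to vary between cell types and with growth.

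Start sites are shown first because the pyrimidine run is the known sequence feature of this class. RefSeq start sites (assembly GRCm38.p6) were found for 49 of the 67 members, with 60 starts in all. A C at the annotated start, followed by at least 4 bases that are each C or T, was present at 11 of the 60 member starts (18.3%) and at 823 of all 32851 listed starts (2.51%). The 11 genes were Rpl15, Rpl28, Rpl32l, Rpl35, Rpl35a, Rpl38, Rps6, Rps10, Rps15a, Rps18 and Rps21. In the windows printed here, from 40 bases before the start to 18 from it on, capitals mark that run. The first 5 windows have the run at the annotated start, and the other 3, of members with small p-values, do not. In Rpl18 a pyrimidine run begins 1 base after the annotated start, which this definition does not count. Runs of the same pattern elsewhere in the windows, as before the annotated start in Rpl5 and Rps15a, are likewise neither counted nor marked.
Rps10, chr17:27635227-27635284, minus strand: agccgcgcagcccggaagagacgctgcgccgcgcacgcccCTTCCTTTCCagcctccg
Rps15a, chr7:118116130-118116187, minus strand: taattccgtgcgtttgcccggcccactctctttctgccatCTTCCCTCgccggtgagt
Rps18, chr17:33955648-33955705, minus strand: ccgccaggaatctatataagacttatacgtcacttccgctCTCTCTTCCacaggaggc
Rpl35, chr2:39005114-39005171, minus strand: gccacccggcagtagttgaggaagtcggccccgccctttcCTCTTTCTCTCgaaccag
Rps6, chr4:86857350-86857407, minus strand: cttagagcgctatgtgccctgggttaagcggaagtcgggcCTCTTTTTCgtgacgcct
Rpl5, chr5:107900488-107900545, plus strand: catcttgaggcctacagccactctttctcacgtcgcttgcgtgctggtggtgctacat
Rpl22, chr4:152324396-152324453, plus strand: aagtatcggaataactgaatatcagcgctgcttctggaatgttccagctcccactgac
Rpl18, chr7:45718031-45718088, plus strand: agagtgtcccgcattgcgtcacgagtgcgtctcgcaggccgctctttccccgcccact

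Of 3 further motifs searched on both strands from 250 bases before to 50 after each start, each counted separately whether or not matches overlap, CGGAAGT, the core bound by ETS family factors, was found at 18 of the 60 member starts (30.0%) and at 6.42% of all listed starts. GCCATCTT, which resembles the YY1 site, was found at 6 member starts (10%) against 2.75% of all starts, and TATAAA at 7 (11.7%) against 13.6%. These matches describe the letters of the windows only.

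Nearly all of the 67 genes had a higher mean in YFP+ than in YFP- cells, by small amounts, and few differences passed the test gene by gene. Of the 67, 64 had a positive log2 difference (YFP+ minus YFP-), whereas 50.4% of all genes did. Their median was 0.31, with an interquartile range of 0.17 to 0.41, while the median of all genes was 0.00 (interquartile range -0.14 to 0.14). Only Rps10 and Rpl5 passed the test of single genes (limma, adjusted p under 0.05 over all genes), which is 2 of 67 (2.99%) against 1.27% of all genes called higher. No member was called lower, as was 0.336% of all genes, and none had a negative difference with an unadjusted p under 0.05, as 6.34% of all genes did. With an unadjusted p under 0.05, 37 members were higher, against 7.13% of all genes. In 36 members (53.7%) the lowest YFP+ value exceeded the highest YFP- value, which was the case in 4.8% of all genes; in no member was the reverse seen (3.82% of all genes).

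**Figure D1:**
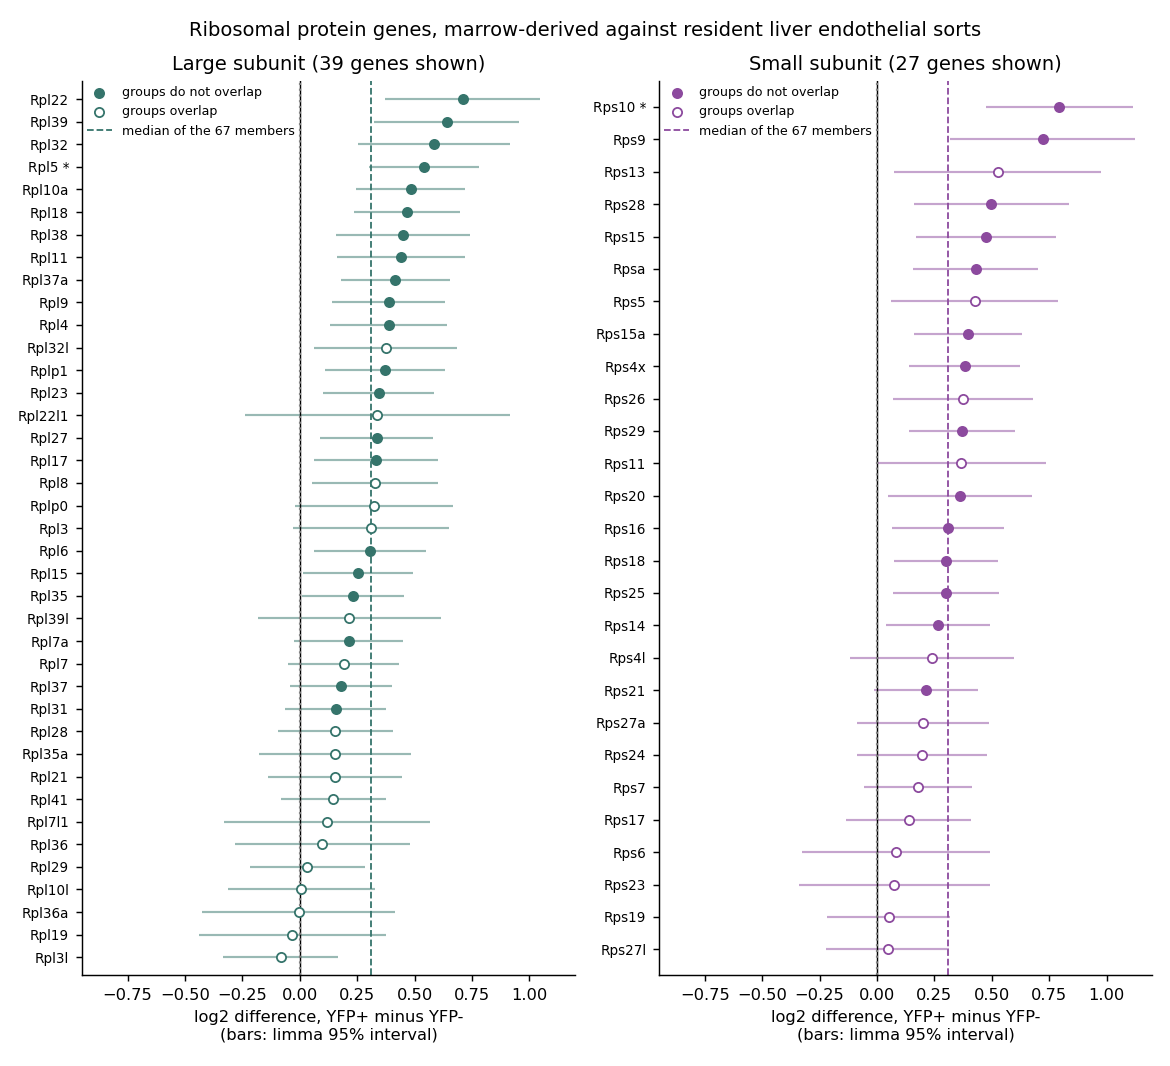
Log2 difference between YFP+ and YFP- cells for 66 of the 67 ribosomal protein genes, large subunit left and small subunit right, with limma's 95% interval; filled points are genes whose groups do not overlap, asterisks mark an adjusted p under 0.05, the dotted line is the median of all genes and the dashed line the members' median of 0.31. Of the 66 points, 63 lie right of 0, and 2 carry an asterisk.

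Bright probe sets in general did not have such a median. Genes above background, the 95th percentile of an array's negative controls, on all 8 arrays numbered 2034 and had a median difference of -0.08, with 37.7% positive. The 52 members among them had a median of 0.31 and 50 positive differences. Of the 52, 33 did not overlap between the groups (7.92% of the 2034 genes, YFP+ higher), and 1, Rpl5, was called (0.688% of the 2034 genes called higher). The median level was 11.38 log2 for the 52 members and 10.05 for the 2034 genes. The comparison is thus not matched for brightness. A looser filter, above background on at least 4 arrays, kept 59 members, 7 of which passed it with 1 or 2 YFP- arrays, Rps10 among them, and so mainly through the group where they are high. In a limma fit of the genes it kept, 10 members were called higher and none lower (3.84% and 3.49% of those genes; no member was lower at an unadjusted p under 0.05), which is given as a description. With array weights 12 members were called (2.45% of all genes called higher), with trended robust eBayes 9 (1.5%) and after cyclic loess normalization 7 (1.27%). Large subunit members had a median of 0.32 (37 of 40 positive, 22 without overlap). Small subunit members had one of 0.31 (27 of 27 positive, 14 without overlap). Of all genes, 50.4% were positive and 4.8% without overlap with YFP+ higher. Over all members the differences ran from -0.08 to 0.79. The median gene intensity was nearly equal on all arrays (160.5 to 166.1), so differences are relative to the rest of the measured RNA; in such bulk samples fewer cells of a type and less RNA per cell cannot be told apart.

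**Figure D2:**
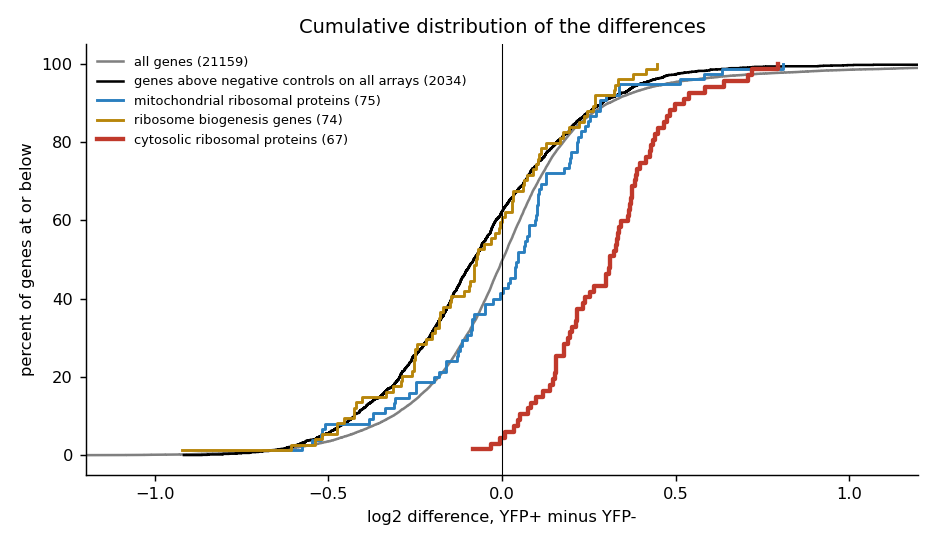
Percent of genes at or below each log2 difference (YFP+ minus YFP-) for the 67 members, all genes, genes above the negative controls on all arrays, and 2 related lists. The curve of the cytosolic ribosomal proteins lies to the right with a median of 0.31. The medians of mitochondrial ribosomal proteins (0.04) and ribosome biogenesis genes (-0.07) lie near 0. Of these genes, 52 of 75 and 49 of 74 were above background on no array, against 7 of the 67 members. This limits the comparison.

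Rps10, a protein of the small subunit's head that is mutated in some patients with Diamond-Blackfan anaemia, had log2 intensities of 9.05, 9.02, 8.90 and 9.30 on YFP- replicates 1 to 4 and of 10.10, 9.77, 9.98 and 9.60 on YFP+ replicates 1 to 4. The groups did not overlap, and 1 of the 4 YFP- arrays but all 4 YFP+ arrays lay above the 95th percentile of their negative controls. That percentile was itself 504.6 to 548.4 intensity units on YFP- arrays and 423.2 to 521.2 on YFP+ arrays. The log2 difference of Rps10 was 0.79 (SE 0.144, 1.73-fold), with an adjusted p = 0.0281 in limma. Rpl5, which with Rpl11 and the 5S ribosomal RNA forms a particle that can bind and restrain Mdm2, stood at 10.91, 10.97, 11.05 and 10.93 in YFP- and at 11.57, 11.61, 11.48 and 11.36 in YFP+ cells. All 4 YFP+ values lay above all YFP- values, and each group spanned less than the gap between the means. Rpl5 was 1.45-fold higher (log2 difference 0.54, SE 0.108), with an adjusted p = 0.0407 in limma. Neither call held under every omission of an array. Neither held with the replicate number as a block (limma adjusted p = 0.0794 for Rps10 and 0.0919 for Rpl5). In limma the adjusted p of Rps10 was 0.0846, 0.101 and 0.0887 when YFP- replicate 1, 2 or 3 was omitted, and 0.0711 when YFP+ replicate 1 was. That of Rpl5 was 0.0336 without YFP+ replicate 3, and lay between 0.0593 and 0.130 (limma) when any other single array was omitted.

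Rpl11, the partner of Rpl5, had YFP- values of 10.41, 10.47, 10.06 and 10.39 and YFP+ values of 10.69, 10.90, 10.78 and 10.73. The groups did not overlap, but the difference of 0.44 (SE 0.125) missed the threshold (limma adjusted p = 0.130). Rpl22, a large subunit protein that mice need for normal development of alpha-beta T cells, stood at 9.88, 9.86, 9.79 and 10.17 in YFP- and at 10.83, 10.72, 10.26 and 10.73 in YFP+ cells. YFP+ replicate 3 was the lowest of its group and still above YFP- replicate 4, the highest of the other, and the difference of 0.71 (SE 0.152) had an adjusted p = 0.0514 in limma. Rpl10a was the least variable member in YFP+ cells, at 9.62, 9.64, 9.67 and 9.61 (SD 0.03, n = 4), against 9.28, 9.08, 9.02 and 9.22 in YFP- cells (difference 0.48, limma adjusted p = 0.0566). Rpl18 had values of 11.06, 11.05, 11.11 and 11.15 in YFP- and 11.55, 11.68, 11.51 and 11.49 in YFP+ cells, again without overlap (difference 0.47, limma adjusted p = 0.0570). Rps9, a small subunit protein, differed by 0.72 with no overlap between the groups (limma adjusted p = 0.0912).

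**Figure D3:**
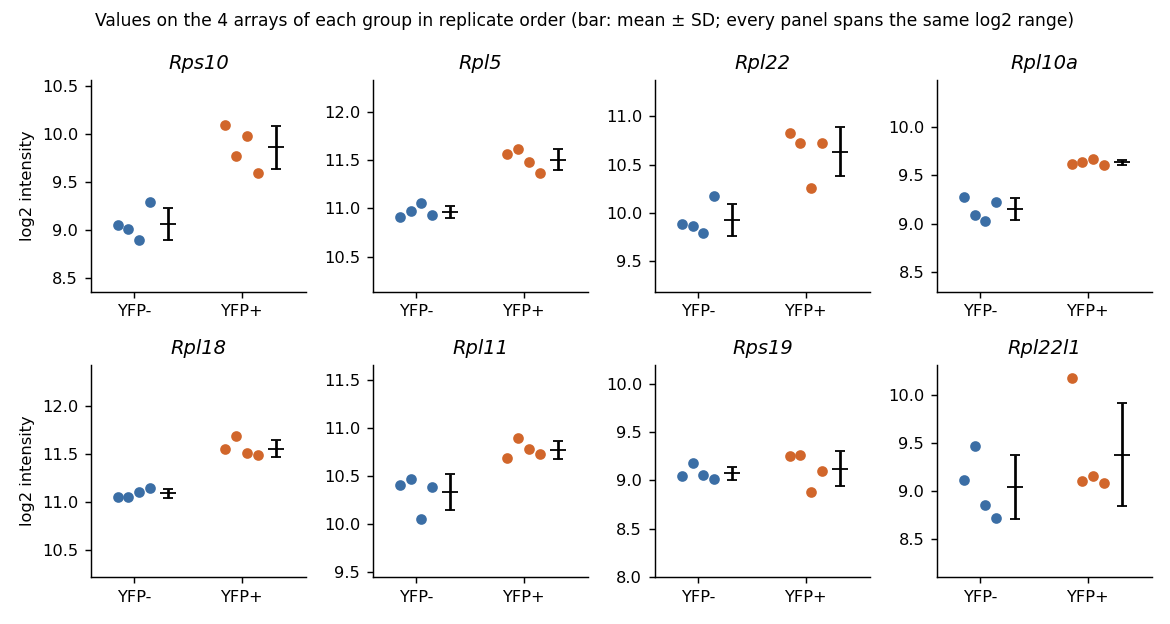
Log2 intensity of 8 members on the 4 YFP- and 4 YFP+ arrays, each point an array in replicate order, with the mean and SD of the group beside it; every panel spans the same range in log2 units around the gene's own mean. Rps10, Rpl5, Rpl22, Rpl10a, Rpl18 and Rpl11 separate the groups, while Rps19 and Rpl22l1 overlap.

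Small subunit members with small p-values that were not called included Rps15a (difference 0.40), Rps29 (0.37), Rps4x (0.38) and Rpsa (0.43), a protein also described as a laminin receptor, with limma adjusted p-values from 0.111 to 0.135 and no overlap between the groups. Rps13 differed by 0.53 but overlapped, with a YFP+ SD of 0.42 (n = 4), among the largest of the members. Other members had differences near 0. Rps19, the gene most often mutated in Diamond-Blackfan anaemia, had a difference of 0.05 with a 95% interval of -0.22 to 0.32. Rpl19 had -0.03 (-0.44 to 0.38), and its sign changed in some alternatives, cyclic loess normalization among them. Of 14 measured genes mutated in that anaemia, all members here, 14 had positive differences (50.4% of all genes), 2 were called (Rps10 and Rpl5; 1.27% of all genes called higher) and the median was 0.29, close to the 0.31 of all members. Of the stalk proteins that recruit elongation factors, Rplp1 differed by 0.37 and Rplp0 by 0.32 (limma adjusted p = 0.179 and 0.408).

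Rps6, the substrate of the S6 kinases, had 1 array far from the rest and is named, like Rps19, after its values were seen. It stood at 11.42, 11.35, 11.40 and 11.39 in YFP- cells and at 11.68, 11.71 and 11.65 on YFP+ replicates 1, 2 and 4, but at 10.86 on YFP+ replicate 3. Rpl36a had the same array low, with 10.96, 11.00 and 10.90 on YFP+ replicates 1, 2 and 4 and 10.14 on replicate 3, against 10.74, 10.69, 10.94 and 10.67 in YFP- cells. Without that array the groups of Rps6 would not overlap, while those of Rpl36a still would, since YFP+ replicate 4 lay below YFP- replicate 3. YFP+ replicate 3 was the lowest of the 4 YFP+ arrays in 41 of the 67 members and lay above the YFP- mean in 52, whereas YFP+ replicates 1, 2 and 4 did so in 65, 64 and 63. The median deviation of the members from their YFP- mean was 0.37, 0.36, 0.18 and 0.26 on YFP+ replicates 1 to 4, and between -0.05 and 0.05 on the YFP- arrays. The YFP- arrays lie near 0 by construction, since their own mean is subtracted. By mean level of the members, YFP+ arrays stood at 10.57 to 10.77 and YFP- arrays at 10.34 to 10.46, with YFP+ replicate 3 the lowest of its group. By median level the groups overlapped, with 10.86 on YFP+ replicate 3 and 10.94 on YFP- replicate 3. In 9 members YFP+ replicate 3 was the lowest of all 8 arrays. Without YFP+ replicate 3, 7 members were called, against 2.37% of all genes called higher, and 50 members (74.6%) did not overlap, against 7.51% of all genes. With YFP- replicate 1, 2, 3 or 4 omitted, limma called 0, 0, 0 and 1 members higher, against 124, 107, 117 and 111 of 21159 genes. With YFP+ replicate 1, 2 or 4 omitted, it called 0, 1 and 1 members higher, against 159, 282 and 147 genes. Over all alternatives, 28 to 48 members were higher at an unadjusted p under 0.05 (7.13% of all genes in the fit reported).

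**Figure D4:**
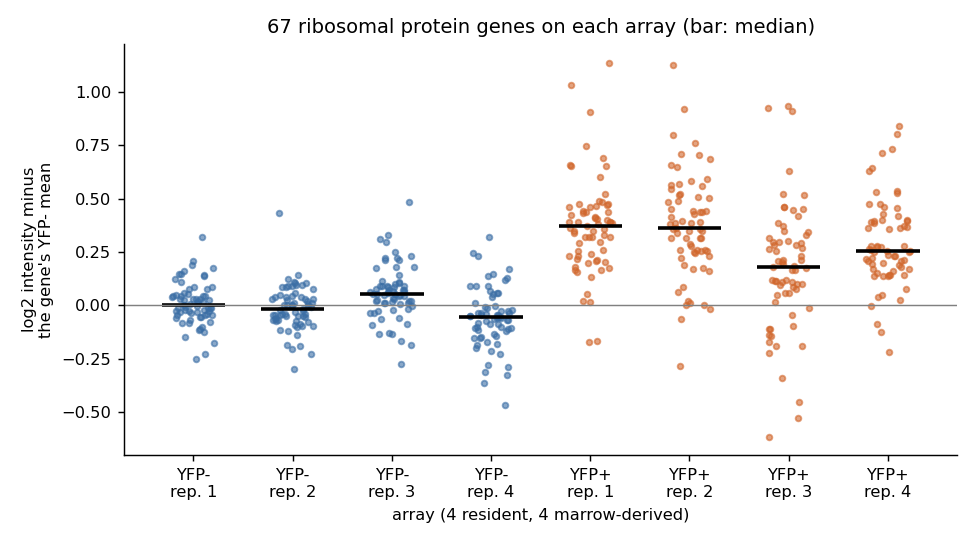
Log2 intensity of each of the 67 members on each array minus that gene's mean over the YFP- arrays, with the median as a bar; colours separate YFP- from YFP+ arrays. The medians are 0.37, 0.36, 0.18 and 0.26 on YFP+ replicates 1 to 4, and YFP+ replicate 3 has the most genes below 0 of that group.

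Genes named as paralogs or -like forms were mostly too dim to be compared: of 8, 5 were above background on no array and 1 on a single array. Rpl22l1, a paralog whose transcript Rpl22 represses in mouse cells, stood at 9.12, 9.47, 8.85 and 8.72 in YFP- cells and at 10.17, 9.10, 9.15 and 9.08 in YFP+ cells. A single YFP+ array was high, the groups overlapped, and the difference of 0.34 had a 95% interval of -0.24 to 0.91, so that a difference as large as that of Rpl22 is within it. Rps27l, a target of p53, differed by 0.05 (-0.22 to 0.31) and was above the negative controls on all arrays. Rpl3l, known from striated muscle, Rpl10l and Rpl39l, known from male germ cells, and Rpl7l1 and Rpl32l were the 5 not well above background on any array, and no fold is given for them; Rps4l was above it on 1 YFP+ array. None of the 8 was called (limma; 1 had an unadjusted p under 0.05), and all overlapped between the groups. Among the conventional members, Rpl36 and the X-linked Rpl39 were also not well above the controls on any array. Rpl39 nevertheless separated the groups, with 7.64, 7.27, 7.36 and 7.55 in YFP- and 8.11, 7.95, 8.39 and 7.93 in YFP+ cells (limma adjusted p = 0.0570). In all, 52 members were above the controls on every array, 7 on none and 8 on some. Each of these 8 was so on more YFP+ than YFP- arrays. Of all genes, 14.6 to 19.0% were above the controls on YFP+ arrays and 13.7 to 15.4% on YFP- arrays. The 95th percentile that sets the count was 423.2 to 521.2 intensity units on YFP+ and 504.6 to 548.4 on YFP- arrays. The negative controls also had lower medians on YFP+ arrays (103.0 to 112.7 intensity units) than on YFP- arrays (119.1 to 127.3). The part of these controls in dim members was not tested.

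Ribosomal protein genes with a second symbol on their probe set had values like those of the members. Of these 17, 15 had positive differences (50.4% of all genes) and the median was 0.29. In 12 the groups did not overlap with YFP+ higher (4.8% of all genes). Rplp2, the third stalk protein, whose probe set also names Snora52 and which is singled out here after its values were seen, had 9.33, 9.41, 9.46 and 9.54 in YFP- and 10.32, 10.42, 10.48 and 10.27 in YFP+ cells. It was the 1 of the 17 that was called (1.27% of all genes called higher). Its log2 difference was 0.94 (SE 0.108), with an adjusted p = 0.00393 in limma. Whether the signal comes from Rplp2 or from the small RNA within it cannot be told apart on this array. Rps27, the parent of Rps27l, shares its probe set with the near copy Rps27rt and differed by 0.54 (limma adjusted p = 0.0895). Many ribosomal protein genes have processed pseudogenes of nearly the same sequence, and probe sequences were not used here, so signal from such copies cannot be told apart from that of the gene. Of the 3 members with several probe sets, the dimmer ones of Rpl31, Rps26 and Rpl29 gave differences of 0.01, -0.22 and 0.37 against 0.16, 0.37 and 0.03 of the ones used, and the dimmer Rpl29 probe set has the same values on all arrays as one that also names Gm13841.

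Members with the pyrimidine run at a listed start did not have the higher median. Their median difference was 0.25 (11 genes, 11 positive). That of members with listed starts but no run was 0.33 (38 genes, 35 positive), and that of members without a listed start 0.32 (18 genes). The split rests on the exact base of the annotated start, and Rpl18, whose run begins 1 base later, counts as having none. It therefore cannot tell members with a TOP sequence from members without one, and no conclusion is drawn.

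Other parts of the translation machinery were compared with the ribosomal proteins. Of all genes, 50.4% had a positive difference and 1.27% were called higher. At an unadjusted p under 0.05 in limma, 7.13% of all genes were higher and 6.34% lower. A list of ribosome-associated genes and known TOP genes outside the member rule had positive differences in 19 of 19 measured genes, a median of 0.34 and no call (limma); 10 had an unadjusted p under 0.05, all higher. It includes the elongation factor subunits Eef1d (difference 0.63, limma adjusted p = 0.0785) and Eef1b2 (0.83, 0.241), the initiation factor Eif4b (0.70, 0.181) and the poly(A)-binding protein Pabpc1 (0.40, 0.208). Eef1a1, the main elongation factor, differed by 0.07. Initiation factors, which load the small subunit onto the message, had 19 of 36 positive differences and a median of 0.04; none was called, 4 had an unadjusted p under 0.05 upward (among them Eif4b and Eif3m, 0.52) and 1, Eif4g3, downward, which was above background on no array. Elongation and termination factors had 7 of 11 positive differences, a median of 0.07 and no call, with 4 upward and 1, the recycling factor Abce1 (above background on no array), downward at an unadjusted p under 0.05. These lists share members, so their counts are not independent. Of the initiation factors 16 of 36, and of the elongation and termination factors 3 of 11, were above background on no array. In the TOP list it was 0 of 19.

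**Figure D5:**
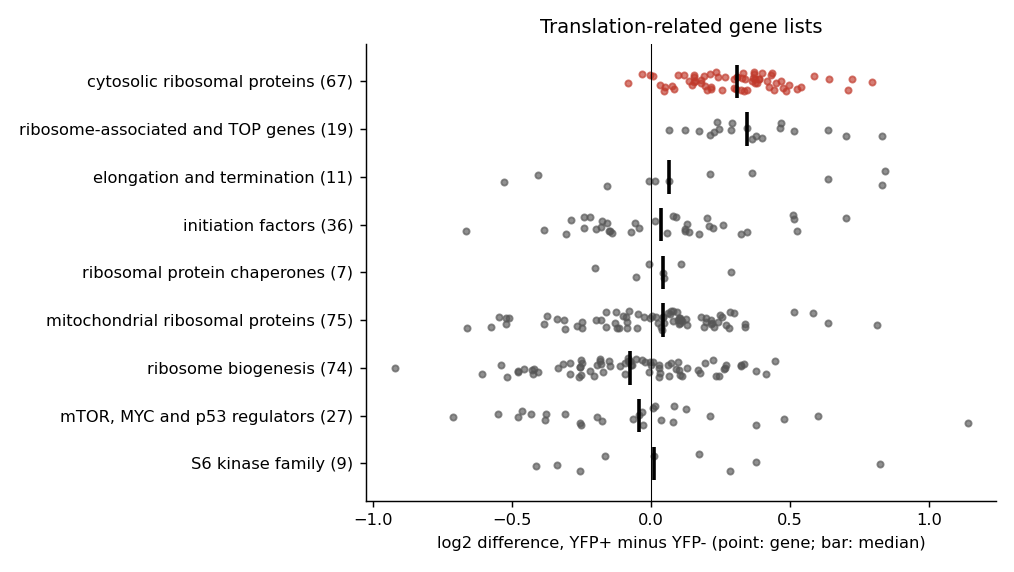
Log2 difference (YFP+ minus YFP-) of every measured gene in 9 translation-related lists, each point a gene and each bar a list's median, with the number of genes in brackets. Cytosolic ribosomal proteins (median 0.31) and the TOP list (0.34) lie right of 0, and the other medians lie between -0.07 and 0.07. Of the mitochondrial, biogenesis and initiation lists, 52 of 75, 49 of 74 and 16 of 36 genes were above background on no array. Among the cytosolic ribosomal proteins and the TOP list it was 7 of 67 and 0 of 19.

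Ribosome biogenesis genes, which make and assemble ribosomal RNA in the nucleolus, had 30 of 74 positive differences and a median of -0.07. Of these, 1 was called, Heatr1, a factor of ribosomal RNA transcription and processing, which was lower in YFP+ cells (limma adjusted p = 0.0405) but above background on no array, so that no fold is given. At an unadjusted p under 0.05, 1 was higher and 7 were lower. For this list and those below, the shares of all genes were 50.4% positive and 0.336% called lower. At an unadjusted p under 0.05 they were 7.13% higher and 6.34% lower. Of the 74 biogenesis genes 49 were above background on no array, and of the 75 mitochondrial ribosomal proteins 52. Of the 67 members it was 7, which limits both comparisons. Mitochondrial ribosomal proteins had 44 of 75 positive differences, a median of 0.04 and no call, with 5 higher and 5 lower at an unadjusted p under 0.05, among them Mrpl49 (-0.52), Mrpl50 (0.81) and Mrpl45, which was above background on no array. Of 7 chaperones of single ribosomal proteins, 4 were positive, none was called and none had an unadjusted p under 0.05; Aamp had the largest difference of them (0.29). Regulators of the mTOR, MYC and p53 pathways had 11 of 27 positive differences, a median of -0.04 and no call, with 2 higher and 5 lower at an unadjusted p under 0.05; Ddit4, a stress-induced inhibitor of mTOR, differed by 1.14 (limma adjusted p = 0.0532), Mxd1 by 0.60 and Tsc1 by -0.46. In the S6 kinase family 5 of 9 were positive and none was called, with 1, Rps6kl1, lower at an unadjusted p under 0.05 and above background on no array. Rps6ka2 differed by -0.34 and Rps6ka1 by 0.82.

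Markers of other cells moved with the groups. All 15 pan-leukocyte genes had positive differences and 6 were called; their mean log2 level was 7.25 to 7.57 on YFP- arrays and 8.81, 9.99, 8.33 and 8.99 on YFP+ replicates 1 to 4, and 2 of the 15 were above background on no array. Ptprc, which encodes CD45, had means of 7.28 in YFP- and 8.79 in YFP+ cells and was above background on 3 arrays (limma adjusted p = 0.181). In YFP+ cells the leukocyte mean was highest on replicate 2 and lowest on replicate 3, where the members' median deviation was 0.36 and 0.18, but replicate 1 had the highest member median (0.37) at a leukocyte mean below that of replicate 4. Called higher were also 7 of 10 bile duct, 6 of 13 myeloid and 3 of 8 mast cell and basophil markers (limma). So were 3 of 10 platelet and 3 of 12 hepatocyte markers, against 1.27% of all genes. Of the 8 mast cell and basophil markers 1 was lower without overlap (-0.52, unadjusted p under 0.05 in limma). None of 10 lymphoid, 6 erythroid and 12 cell-cycle genes was called (5, 1 and 1 higher at an unadjusted p under 0.05, against 7.13% of all genes). Of these, 9, 6 and 8 were above background on no array, so the lack of a call says little. The same held for 4 bile duct, 9 myeloid, 5 platelet and 7 hepatocyte markers. Mean log2 levels on YFP- and YFP+ arrays were 7.86 to 8.22 and 8.87 to 9.48 for the bile duct list, 7.04 to 7.21 and 7.74 to 8.25 for the myeloid list, and 7.84 to 8.01 and 8.63 to 10.78 for the mast cell and basophil list. They were 7.46 to 7.51 and 8.34 to 8.58 for the platelet list, and 7.60 to 7.90 and 8.01 to 8.88 for the hepatocyte list, so that the groups did not overlap in any of these 5 lists. Pan-endothelial genes had 17 of 18 and sinusoidal genes 10 of 10 negative differences, with 1 and 0 called lower in limma (0.336% of all genes). At an unadjusted p under 0.05, 12 and 4 were lower (6.34% of all genes) and none was higher. In 11 and 5 the groups did not overlap, with YFP+ lower (3.82% of all genes). Of the 18 and 10 genes, 15 and 10 were above background on all arrays. Among the 2034 genes of that kind, 351 were lower at that p and 279 did not overlap, with YFP+ lower. Mean levels of these lists were 10.12 to 10.49 and 11.02 to 11.33 on the YFP+ arrays, against 10.63 to 10.70 and 11.44 to 11.57 on the YFP- arrays. The part of these other cells in the ribosomal protein difference was not tested. YFP+ replicate 3 correlated least with its group (mean r 0.901 over genes, against 0.930 to 0.969 for the other arrays).

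The authors' deposited table gives a fold over 1 and an unadjusted p under 0.05, from a test it does not name, for 42 of the 67 members (62.7%). In the same direction, with a fold over 1, it gives such a p for 1214 of the 21159 genes. In either direction it does so for 2429 genes (11.5%).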

How the data were processed

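RNA of sorted liver endothelial cells was measured on 8 arrays, 4 YFP+ and 4 YFP-. Per the labels' protocols, PicoPure columns gave the RNA, and 100 pg were labelled with biotin by Affymetrix's 3' IVT Pico kit. The authors deposited linear, normalized intensity values for every probe set, with their fold (ratio of group means) and an unadjusted p-value, per the file headers; the sources used here do not give the array model, normalization method, background correction or build. Groups and replicate numbers come from the titles; p-values reflect the spread between these 8 arrays, whose number limits the precision.

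Values were log2 transformed with no further normalization. Of 22206 gene probe sets, 3 with a missing value were left out, 21373 had 1 symbol and 830 several; the brightest probe set per gene over 8 arrays gave 21159 genes, and 7194 annotations are truncated. All genes were fitted with limma 3.58.1 (R 4.3.3; lmFit, eBayes, two-sided, Benjamini-Hochberg over all genes, threshold 0.05) without covariates; the procedure was tested on simulated data. Same-numbered arrays were not treated as pairs, because the labels do not say that a number marks a mouse. The correlations of their deviations from group means were 0.019 to 0.159, with 1 of 4 over 0.1 and replicate 3 at 0.0999. Of the 8 arrays, 7 correlated best with their own number. The headers of the deposited columns carry the numbers 2 to 5 in both groups, in the order of replicates 1 to 4. Pairing is therefore not excluded. A fit with the replicate number as a block is given among the alternatives. SDs are over 4 arrays and SEs are limma's. Python 3.11.15, pandas 2.3.3 and matplotlib 3.10.9 were used for tables and plots.

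Members and lists were chosen with earlier results of these data known. Named members were, by rule, those called, the 6 with the smallest p per direction and subunit, those of the stalk, the 5S particle and the paralogs with their parents, those with the highest and lowest levels, and the 3 with the smallest and largest YFP+ SD; of each related list, the called genes or the 3 with the smallest p. Counts and medians cover all 67 members, of which 1 is not reported here by itself. Members named beyond it, and those printed with all 8 values beside the called ones, were chosen after values were seen. Alternatives were the replicate block, normalization by quantiles or cyclic loess, omission of dim genes, other uses of several probe sets, trended robust eBayes, array weights and leaving out arrays; including probe sets with several symbols was added after seeing the data.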

Additional observations from a re-analysis of the deposited data

Results flagged for a closer look

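In 4 of 60 groups of the named members, 1 array lay far from the other 3 of its group, a gap that chance gives in about 1 of 20 groups; over all members it was 12 of 134 groups, 3 of them through YFP+ replicate 3 and 3 through YFP- replicate 4. Rpl22l1 stood at 10.17 on YFP+ replicate 1, against 9.08 to 9.15 on the other YFP+ arrays. Rpl36a stood at 10.14 on YFP+ replicate 3, against 10.90 to 11.00. Rpl39l stood at 7.05 on YFP+ replicate 4, against 6.32 to 6.44, all under the negative controls' 95th percentile. Rps4x stood at 10.39 on YFP- replicate 3, against 10.25 to 10.27.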

How the results depend on the processing

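Over 18 alternatives the members' median difference lay between 0.28 and 0.38, beside medians of all genes tested between -0.08 and 0.02. In alternatives that tested all 67 members, 62 to 66 had positive differences, and no member was called lower in any. The number called higher was the unstable value. It was 2 as reported, 7 after cyclic loess normalization, 10 with dim genes left out, where fewer genes were tested, 9 with trended robust eBayes, 12 with array weights and 0 to 7 when single arrays were left out; the cause was not tested. With the replicate number as a block 0 members and 241 genes were called. The adjusted p of Rps10 was then 0.0794 and that of Rpl5 0.0919 (limma). No fewer than 28 members had an unadjusted p under 0.05 in any alternative. Of the 8 arrays, 7 correlated best with the array of their own number, and the deposited column headers repeat the same numbers in both groups. Neither says that a number marks a mouse, so pairing is not excluded. Over all genes 340 were called as reported, 695 with array weights, 586 without YFP+ replicates 2 and 3, and 115 to 636 without single arrays. Rps10 was called in 12 and Rpl5 in 9 of the 18 alternatives (limma adjusted p 0.0133 to 0.101 and 0.0104 to 0.130). Of the 30 named members 4, none of them called (Rpl10l, Rpl19, Rpl36a and Rpl7l1), changed sign in some alternative. Dim members are limited by the signal over the negative controls.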
